A study of Mus musculus with 2 samples.

Results

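The 7SK, 7SL, RNase P and RNase MRP RNAs were read as short fragments in 2 small RNA libraries of mouse bone marrow-derived dendritic cells, 1 nuclear and 1 cytoplasmic. They come from 5 genes (Rn7sk, Rn7s1, Rn7s2, Rpph1 and Rmrp) of 14395 genes with a matched sequence. Fragments were chosen by sequence alone: a deposited sequence counted if it matched one of these RNAs on the sense strand, in full or with up to 3 unmatched bases at its 3′ end. This gave 1045 of 538100 listed sequences, 769 of 400087 in the nuclear and 523 of 169208 in the cytoplasmic library. The matching rule used no levels, but the members were chosen with earlier results of these data known.

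Both libraries came from C57BL/6 bone marrow grown for 7 days with GM-CSF and IL-4, which yields dendritic cells, and stimulated with lipopolysaccharide (LPS). The nuclear library was made from the pellet left after the cells were swollen with the mild detergent NP40 present and spun down, and the cytoplasmic library from the fraction that stayed in solution. Neither fraction has an unstimulated counterpart here. Which LPS dose and time were used, and how many mice gave marrow, is not stated in the labels. The study asked which small RNAs are enriched in the nucleus. The libraries listed 2000019 nuclear and 2041383 cytoplasmic reads. With 1 library per fraction there is no replicate error and no test between fractions. All intervals are exact 95% intervals, Clopper-Pearson for shares and ratios and conditional for odds. They cover counting error only and treat reads as independent, which reads amplified by PCR are not.

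All 4 RNAs are made by RNA polymerase III and work as long, folded RNAs in complex with proteins. 7SK holds the kinase P-TEFb inactive and so restrains transcription elongation. 7SL is the scaffold of the signal recognition particle, which brings ribosomes making secreted proteins to the endoplasmic reticulum; its 5′ and 3′ parts fold into the Alu domain, from which the B1 repeats of the mouse genome derive, and its middle forms the S domain that binds signal peptides. RNase P cuts the 5′ leader off precursor tRNAs, and RNase MRP, which shares most of its proteins, cuts precursor ribosomal RNA. RNase P, RNase MRP and 7SK are known mainly from the nucleus, while 7SL is assembled in the nucleolus and works in the cytoplasm.

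The 7SK RNA (GENCODE vM21, GRCm38, chr9:78175303-78175633, minus strand, 331 nt) is shown first, from base 32 on (chr9:78175303-78175602), because a single stretch near its 3′ end gave 50.4% of its nuclear and 66.4% of its cytoplasmic reads. Capitals mark bases 251 to 300, the 50-nt window that held most fragment midpoints.
7SK, bases 32 to 331: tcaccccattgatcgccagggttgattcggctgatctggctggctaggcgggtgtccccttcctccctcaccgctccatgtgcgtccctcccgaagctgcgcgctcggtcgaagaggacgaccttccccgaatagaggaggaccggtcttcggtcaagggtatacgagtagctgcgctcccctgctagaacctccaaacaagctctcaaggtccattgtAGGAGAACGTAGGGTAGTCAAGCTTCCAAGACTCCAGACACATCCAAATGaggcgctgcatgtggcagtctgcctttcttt

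The sequences with most reads in either library all lay there and differed by a base or more at either end. They are printed as deposited, 5′ to 3′, with the bases that these 4 share in capitals (bases 247 to 266, chr9:78175368-78175387, minus strand).
7SK 245 to 266: caTTGTAGGAGAACGTAGGGTA
7SK 246 to 266: aTTGTAGGAGAACGTAGGGTA
7SK 247 to 266: TTGTAGGAGAACGTAGGGTA
7SK 246 to 269: aTTGTAGGAGAACGTAGGGTAgtc
A pair of 7SK fragments from further upstream had the largest and the smallest ratio between the libraries among sequences with at least 10 reads. These are all in capitals and lie at chr9:78175487-78175507 and chr9:78175453-78175473.
7SK 127 to 147: GCTGCGCGCTCGGTCGAAGAG
7SK 161 to 181: GAATAGAGGAGGACCGGTCTT

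For 7SL (Rn7s1, chr12:69159295-69159594, plus strand; Rn7s2, chr12:69361182-69361481, minus strand; both 300 nt with 0 differing bases) the sequences shown are overlapping fragments of a much-read stretch, the one with the smallest ratio (192 to 212) and the one with the largest (273 to 294). Capitals in the first 3 mark the bases all hold (172 to 189, chr12:69159466-69159483, plus strand).
7SL 172 to 190: AAGGAGGGGTGAACCGGCc
7SL 170 to 189: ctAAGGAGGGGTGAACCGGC
7SL 172 to 189: AAGGAGGGGTGAACCGGC
7SL 192 to 212: AGGTCGGAAACGGAGCAGGTC
7SL 273 to 294: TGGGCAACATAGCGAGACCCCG

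For RNase MRP RNA (Rmrp, chr4:43492783-43493063, minus strand, 281 nt) most reads came from the ends of the RNA, so it is shown whole, with its first 50 bases in capitals. The next pair starts at base 5 of the GENCODE transcript, which is the first base of the RefSeq gene, with the shared bases 5 to 22 in capitals (chr4:43493042-43493059). The last reaches the annotated 3′ end, with bases 264 to 281 in capitals (chr4:43492783-43492800) followed by 3 unmatched bases.
RNase MRP RNA: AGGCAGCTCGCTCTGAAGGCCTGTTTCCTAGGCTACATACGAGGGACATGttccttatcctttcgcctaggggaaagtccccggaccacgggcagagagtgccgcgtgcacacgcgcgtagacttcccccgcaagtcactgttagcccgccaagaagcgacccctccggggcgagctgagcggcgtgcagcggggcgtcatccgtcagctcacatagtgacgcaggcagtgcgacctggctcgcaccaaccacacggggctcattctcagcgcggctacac
RNase MRP RNA 5 to 22: AGCTCGCTCTGAAGGCCT
RNase MRP RNA 5 to 31: AGCTCGCTCTGAAGGCCTgtttcctag
RNase MRP RNA 263 to 281: aTTCTCAGCGCGGCTACACttt

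For RNase P RNA (Rpph1, chr14:50807449-50807767, minus strand, 319 nt) the cytoplasmic reads concentrated on fragments ending at base 40, of which the most frequent is shown with the bases shared with shorter forms in capitals (21 to 40, chr14:50807728-50807747). No nuclear fragment had more than 3 reads. A fragment with 3, from the middle of the RNA, is shown, with the bases it shares with the fragment from 155 to 176 in capitals (155 to 164).
RNase P RNA 18 to 40: agcGGGGCCACGTGCTGAGTGCG
RNase P RNA 144 to 164: cgcttgggcagACTGGGCAGG

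Fragments of RNase MRP RNA were the only ones of the 4 whose total passed the 2-fold mark in RPM; with the libraries scaled to miRNA reads, 7SK and 7SL passed it too. RNase MRP RNA had 74 nuclear and 17 cytoplasmic reads, a ratio of 4.44 (2.60 to 8.03). In RPM, the read number set against all reads listed in that library, this was 37.0 nuclear and 8.33 cytoplasmic. It was higher in the nuclear library under all 4 scalings tried, with log2 ratios of at least 1.40. 7SL had 780 nuclear and 439 cytoplasmic reads (390.0 and 215 RPM), a ratio of 1.81 (1.61 to 2.04). The ratio was above 1 under all 4 scalings, but its interval held 1 under the median of ratios (1.10, 0.981 to 1.24). 7SK had 1463 nuclear and 918 cytoplasmic reads (731 and 450 RPM), a ratio of 1.63 (1.497 to 1.77), and a log2 ratio of 0.70 that became -0.01 when the libraries were scaled by the median of ratios. RNase P RNA had 27 nuclear and 28 cytoplasmic reads (13.5 and 13.7 RPM), a ratio of 0.984 (0.558 to 1.73). Its sign depended on the scaling, from a log2 ratio of 0.86 with miRNA reads to -0.74 with the median of ratios. Only 1 nuclear and 19 cytoplasmic of its reads match no other gene. At this depth a difference of RNase P RNA in either direction within that interval was not detectable; with miRNA scaling the interval left out 1 but the ratio stayed under 2-fold.

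These values stand against a background in which more entries, small RNAs or longer genes, were called higher than lower in the nuclear library. A call of higher or lower here means at least 2-fold on the log2 scale, with 0.5 reads added to each value, and an interval that leaves out 1. Of 981 entries with at least 50 reads, 43.8% were called higher and 10.4% lower in the nuclear library. So 1 of 4 RNAs called higher and 0 called lower is no more than the background share. Fragments of longer transcripts made up 589 of the entries, with 262 called higher and 30 lower. Of miRNA entries 33 were called higher, 63 lower and 132 neither, and of snoRNA entries 116 were called higher and 2 neither. The median entry had a log2 ratio of 0.73, beside 0.70 for 7SK and 0.86 for 7SL. Scaling to miRNA reads adds 0.89 to every log2 ratio, while TMM factors take off 0.60 and the median of ratios 0.72.

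Per length, 7SK was the most read of the 4 RNAs in both libraries. It gave 221 nuclear and 136 cytoplasmic RPM per 100 nt, followed by 7SL with 130.0 nuclear and 71.7 cytoplasmic. RNase MRP RNA gave 13.2 nuclear and 2.96 cytoplasmic RPM per 100 nt and RNase P RNA 4.23 nuclear and 4.30 cytoplasmic, so the order of these 2 differed between the libraries. Since only sequences of 18 to 39 nt are listed, these levels count fragments and not the whole RNAs, and less of an RNA cannot be told apart from less of it being cut.

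**Figure D1:**
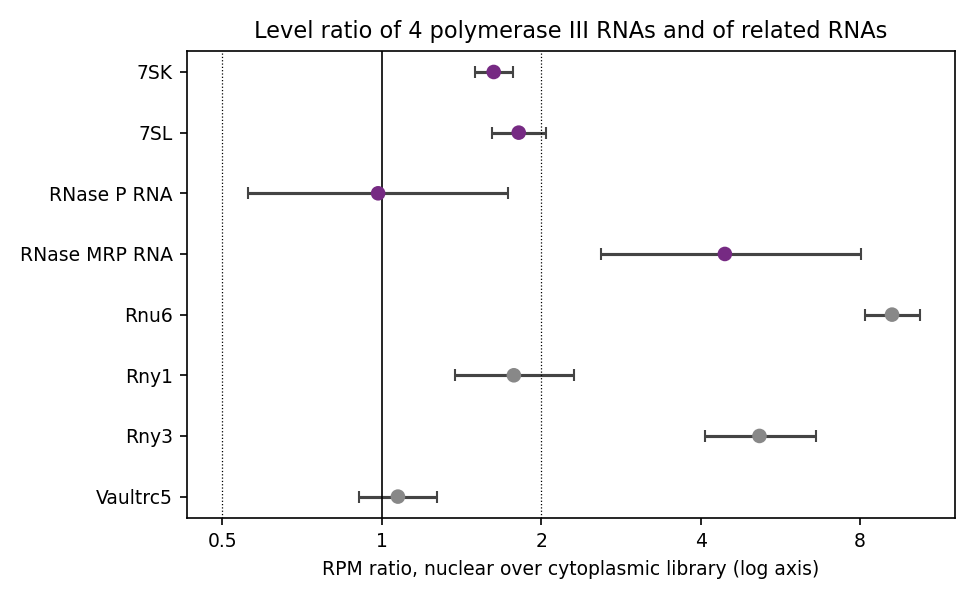
Ratio of RPM, nuclear over cytoplasmic library, on a log axis, with bars for the exact 95% interval of counting error; purple points are the 4 RNAs, grey points other RNA polymerase III transcripts, and dotted lines mark 2-fold. RNase MRP RNA sits at 4.44 beside Rny3 at 5.16 and below Rnu6 at 9.19, while 7SK, 7SL and Rny1 lie between 1.63 and 1.81.

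RNAs known from either compartment gave the scale for these ratios. U6 (Rnu6), the spliceosomal RNA that RNA polymerase III makes, had 2773 nuclear and 308 cytoplasmic reads, a ratio of 9.19 (8.17 to 10.4). The nuclear long RNAs Malat1 and Neat1 had ratios of 6.04 and 15.2 and the snoRNAs, summed, 31.2. Mitochondrial tRNAs, summed, had a ratio of 0.354, while the mitochondrial rRNAs mt-Rnr1 (0.780) and mt-Rnr2 (0.892) lay near 1 and turned to higher with miRNA scaling. Among other small RNA polymerase III transcripts, the Y RNA Rny3 had 425 nuclear and 84 cytoplasmic reads (5.16, 4.08 to 6.61) and Rny1 167 and 96 (1.78, 1.37 to 2.31). The vault RNA Vaultrc5 had 289 nuclear and 275 cytoplasmic reads (1.07, 0.906 to 1.27), and its sign changed with the scaling. The interval of 7SK lies wholly below those of U6, Rny3 and the 2 long nuclear RNAs.

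Reads did not cover the RNAs evenly. Fragments of 7SL touched 100% of its bases in both libraries, and fragments of 7SK 95.2% in the nuclear and 87.9% in the cytoplasmic library. RNase P RNA was covered over 58.0% of its bases in the nuclear and 42.0% in the cytoplasmic library, and RNase MRP RNA over 61.2% and 35.9%. The base covered most often was 254 of 7SK in the nuclear library (728 reads) and 256 in the cytoplasmic library (605 reads). On 7SL it was base 55 in both, with 213 nuclear and 138 cytoplasmic reads. On the other RNAs the peaks differed by library. RNase P RNA peaked at base 158 in the nuclear library (14 reads) and at base 21 in the cytoplasmic library (18 reads). Reads over base 158 also match other genes. RNase MRP RNA peaked at base 15 in the nuclear (32 reads) and base 264 in the cytoplasmic library (8 reads).

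**Figure D2:**
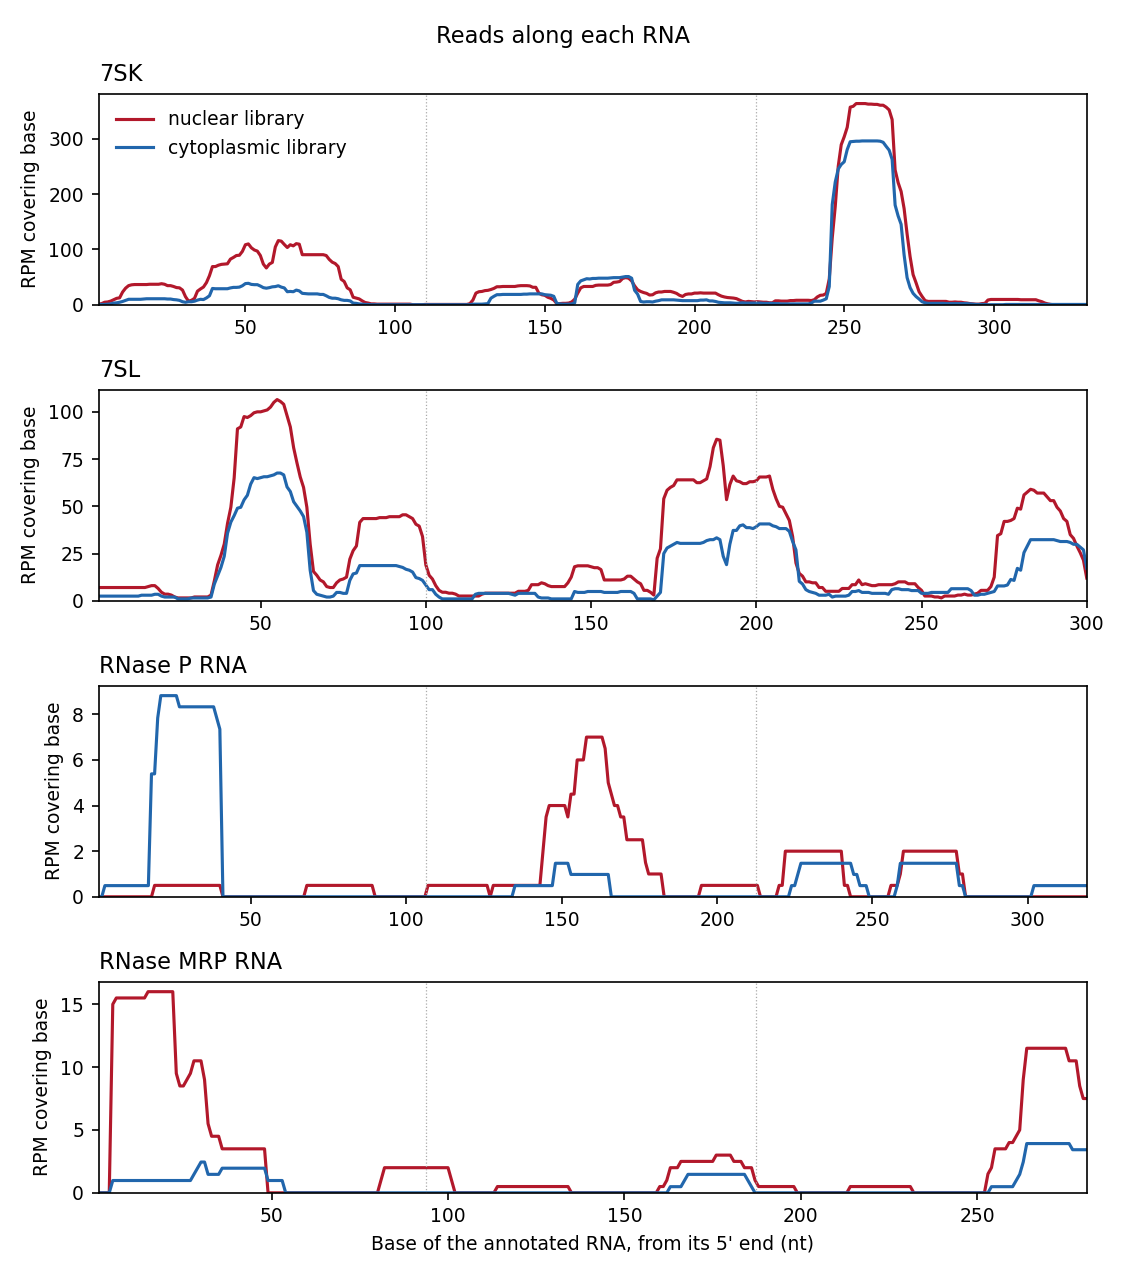
RPM covering each base of the 4 RNAs, counted from the 5′ end, in the nuclear (red) and cytoplasmic (blue) library; dotted lines divide each RNA into 3 parts of equal length, and each panel has its own vertical scale. Both libraries share the 7SK peak near base 255 and the 7SL peaks. RNase P RNA peaks at base 158 in the nuclear library, where reads also match other genes, and at base 21 in the cytoplasmic library.

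Each RNA was divided into 3 parts of equal length, and a fragment was placed by its midpoint. On 7SK, the 5′ part was the most unequal between the fractions. Fragments with their midpoint in bases 1 to 110 had 479 nuclear and 142 cytoplasmic reads, 32.7% of nuclear 7SK reads (30.3% to 35.2%) and 15.5% of cytoplasmic ones (13.2% to 17.97%). The ratio of levels was 3.44 (2.85 to 4.18), and above 1 under all 4 scalings. The 3′ part, bases 221 to 331, held 772 nuclear and 614 cytoplasmic reads, 52.8% of nuclear and 66.9% of cytoplasmic 7SK reads. Its level ratio of 1.28 (1.15 to 1.43) fell below 1 under TMM and the median of ratios. The middle part had 212 nuclear and 162 cytoplasmic reads, a ratio of 1.34 (1.08 to 1.65) that also turned under these 2 scalings.

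Parts of the same RNA share the scaling, so their odds against the rest of that RNA do not depend on it. The odds of a 7SK read lying in the 5′ part were 2.66 times as high in the nuclear library (2.15 to 3.30) and those of the 3′ part 0.553 times (0.464 to 0.659). The difference lay in read numbers more than in the variety of fragments: counting each distinct sequence once, the log2 odds of the 5′ part were 0.33 with an interval that held 1, against 1.41 for reads. The split also follows the annotated copies of 7SK. All 479 nuclear and 142 cytoplasmic reads of the 5′ part, and all of the middle part, also match other annotated genes (53 in all, Gm24447 the most often), while 745 of 772 nuclear and 610 of 614 cytoplasmic reads of the 3′ part match Rn7sk alone. Reads that match Rn7sk alone had a ratio of 1.25 (1.12 to 1.39), below 1 under these 2 scalings, and reads shared with the copies 2.38 (2.08 to 2.73), and the part of the copies in this result was not tested.

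**Figure D3:**
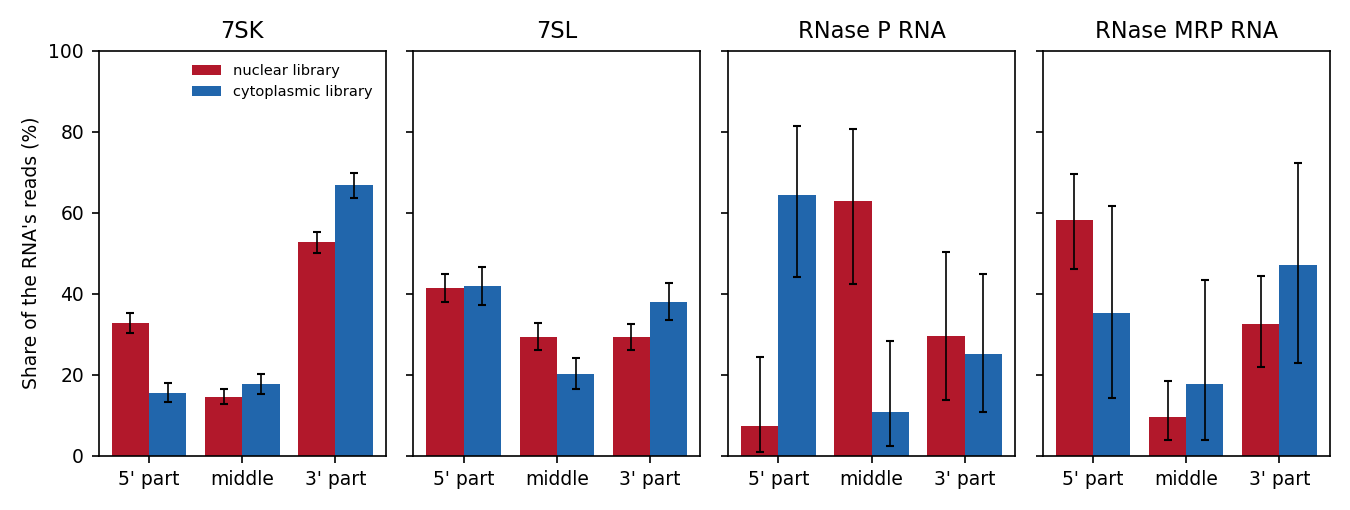
Share of each RNA's reads whose midpoint lies in its 5′, middle or 3′ part (3 parts of equal length), nuclear (red) beside cytoplasmic (blue), with exact 95% intervals of counting error. The 5′ part of 7SK holds 32.7% of nuclear and 15.5% of cytoplasmic reads, and that of RNase P RNA 7.41% of nuclear and 64.3% of cytoplasmic reads. Of all RNase P RNA reads, 96.3% of nuclear and 32.1% of cytoplasmic ones also match another gene.

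The 7SK peak near the 3′ end was made of fragments starting at bases 244 to 252, a window set after the values were seen. They made up 690 of 1463 nuclear reads (47.2%, 44.6% to 49.8%) and 586 of 918 cytoplasmic reads (63.8%, 60.6% to 66.9%), and 0 of these sequences match another gene. The rest of 7SK had 773 nuclear and 332 cytoplasmic reads, a ratio of 2.38 (2.09 to 2.71), against 1.20 (1.07 to 1.34) for the window, which turned below 1 under TMM and the median of ratios.

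Within this window the first base differed between the libraries. Base 246 was the commonest start in both, with 156 nuclear and 303 cytoplasmic reads. It began 22.6% of the window's nuclear reads (19.5% to 25.9%) and 51.7% of its cytoplasmic reads (47.6% to 55.8%). The level ratio was 0.526 (0.430 to 0.640), short of 2-fold in RPM. It was below 1 under all 4 scalings, but close to 1 with miRNA reads (log2 ratio -0.04). The odds against the other starts of the window, which do not depend on scaling, were 0.273 (0.213 to 0.350). A start only 2 bases on went the other way: base 248 had 146 nuclear and 48 cytoplasmic reads, a ratio of 3.10 (2.23 to 4.40), called higher. Base 249 had 78 nuclear and 17 cytoplasmic reads (4.68, 2.75 to 8.44), base 250 had 29 and 10 (2.96) and base 252 had 73 and 29 (2.57), and all 3 were called higher under RPM. Base 245 had 55 nuclear and 45 cytoplasmic reads, base 247 had 113 and 83, and base 251 had 34 and 45, and these 3 were not called in either direction.

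**Figure D4:**
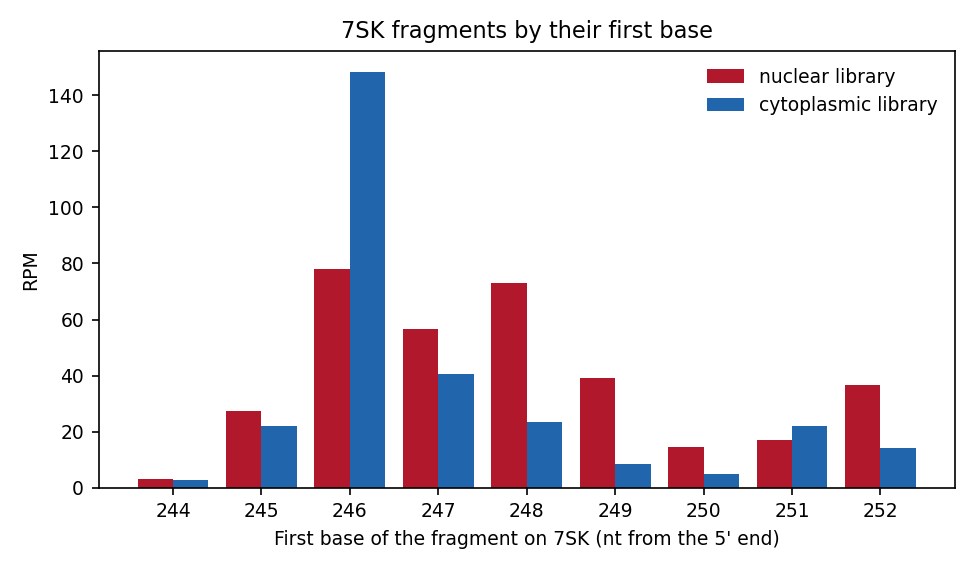
RPM of 7SK fragments by their first base, for bases 244 to 252, nuclear (red) beside cytoplasmic (blue). Base 246 stands at 78.0 RPM (nuclear) and 148 RPM (cytoplasmic), while base 248 stands at 73.0 RPM (nuclear) and 23.5 RPM (cytoplasmic).

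The printed sequences of this window start at 245, 246 or 247 only, and their reads are part of the counts just given. The 21-nt fragment from 246 to 266 had 56 nuclear and 99 cytoplasmic reads (0.577, 0.408 to 0.809). Its 24-nt form ending at 269 had 24 nuclear and 88 cytoplasmic reads, was called lower in the nuclear library and had a ratio of 0.278 (0.169 to 0.441). The form that starts at 247 and ends at 266 had 47 nuclear and 38 cytoplasmic reads, and the form that starts at 245 had 36 and 24; neither was called. With the same last base, the ratio was 1.53 for the start at 245, 0.577 for 246 and 1.26 for 247.

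Over the whole of 7SK 22 starts had at least 20 reads, of which 14 were called higher and 2 lower. The background was 52.1% higher and 17.2% lower among 1755 starts of all small RNAs and longer genes. Outside the window there were 14 such starts, 10 of them called higher and 2 lower. In the 5′ part, base 60 had 59 nuclear and 6 cytoplasmic reads. Base 127 had 25 nuclear and 0 cytoplasmic reads, where a count of 0 allows up to 3 reads, or 1.47 RPM. Its main fragment, 127 to 147, had 17 nuclear and 0 cytoplasmic reads. Both starts called lower lay downstream of it. Base 132 had 4 nuclear and 20 cytoplasmic reads, of which 0 nuclear and 10 cytoplasmic reads carried an unmatched 3′ base. Base 161 had 22 nuclear and 68 cytoplasmic reads, and its 21-nt fragment ending at 181 had 0 nuclear and 13 cytoplasmic reads.

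On 7SL, the scaffold of the signal recognition particle, the middle part gained in the nuclear library. Bases 101 to 200 had 229 nuclear and 88 cytoplasmic reads, a ratio of 2.66 (2.07 to 3.44), with odds against the rest of 1.66 (1.24 to 2.22). The level ratio was under 2-fold with TMM (log2 ratio 0.806) and the median of ratios (0.689). The 5′ part had 323 nuclear and 184 cytoplasmic reads and made up 41.4% of nuclear and 41.9% of cytoplasmic 7SL reads, with odds of 0.980 (0.767 to 1.25). The 3′ part had 228 nuclear and 167 cytoplasmic reads, with odds of 0.673 (0.522 to 0.868). Both differences hang on where the line is drawn: with fragments placed by their first base, the intervals of the middle and 3′ parts held 1. The sequences of 7SL are almost never its own, since 777 of 780 nuclear and 437 of 439 cytoplasmic reads also match other annotated genes (37 in all). Rn7s6, a further 7SL gene, matched 505 nuclear and 248 cytoplasmic of these reads.

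Starts on 7SL that lie a few bases apart also differed in ratio. Base 170 had 40 nuclear and 4 cytoplasmic reads (10.2), while base 172 had 53 and 42 (1.29) and was not called. Base 187 had 20 nuclear and 0 cytoplasmic reads, while base 192 had 28 and 34. Base 43 had 52 nuclear and 8 cytoplasmic reads (6.63), base 42 had 31 and 7, and base 273 had 44 and 7 (6.42). Of 19 starts with at least 20 reads, 6 were called higher and 0 lower, beside the 52.1% higher and 17.2% lower of all starts, so the share called higher was not above the background. Among the printed sequences, 170 to 189 had 15 nuclear and 2 cytoplasmic reads and 172 to 190 had 26 and 7, and both were called higher. The fragment 172 to 189, 1 base shorter at its 3′ end than 172 to 190, had 9 nuclear and 13 cytoplasmic reads and was not called. The form 172 to 191, not printed, had 12 nuclear and 12 cytoplasmic reads and was not called either. Also not printed, the fragment 43 to 65 had 16 nuclear and 5 cytoplasmic reads and was called higher.

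Fragments with the same start also differed by their 3′ end. Those from 192 to 211 had 14 nuclear and 6 cytoplasmic reads, and fragments from 192 to 212 had 4 and 21. The most frequent fragment to 212, printed above, had 4 nuclear and 20 cytoplasmic reads and was the only 7SL sequence called lower, with a ratio of 0.204 (0.0507 to 0.609).

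In RPM, RNase MRP RNA was higher in the nuclear library at both of its ends. Its 5′ part, bases 1 to 93, had 43 nuclear and 6 cytoplasmic reads, a ratio of 7.31 (3.10 to 21.03). Its 3′ part, bases 188 to 281, had 24 nuclear and 8 cytoplasmic reads, a ratio of 3.06 (1.33 to 7.88). The 3′ part fell short of 2-fold under TMM (log2 ratio 0.958) and the median of ratios (0.841). The middle part held only 7 nuclear and 3 cytoplasmic reads. The intervals of the odds of all 3 parts held 1, so at this depth no unequal change along the RNA was detectable.

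Fragments that begin at the first base of mature RNase MRP RNA, as RefSeq places it, made up 30 of 74 nuclear reads (40.5%, 29.3% to 52.6%) and 2 of 17 cytoplasmic reads (11.8%, 1.46% to 36.4%). Their ratio was 15.3 (3.88 to 132). The most frequent, 5 to 22 with 13 nuclear and 0 cytoplasmic reads, is only 18 nt long and also matches a transcript of Hydin, a gene of motile cilia; without it, 17 nuclear and 2 cytoplasmic reads began there. The longer form to base 31, which matches no other gene, had 6 nuclear and 2 cytoplasmic reads. Reads that match Rmrp alone had a ratio of 3.66 (2.11 to 6.69).

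Reads that match RNase P RNA had about equal totals but lay in different parts in the libraries. Its 5′ part, bases 1 to 106, had 2 nuclear and 18 cytoplasmic reads, 8.82-fold lower in the nuclear library (2.11 to 78.4). Its middle part, bases 107 to 212, had 17 nuclear and 3 cytoplasmic reads, a ratio of 5.78 (1.67 to 30.8). All reads of the middle part also match another gene, so they cannot be assigned to RNase P RNA. The 3′ part had 8 nuclear and 7 cytoplasmic reads. The odds were 0.0476 (0.00455 to 0.253) for the 5′ part and 13.4 (2.98 to 86.9) for the middle part.

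The cytoplasmic reads were the work of a few nested fragments. Base 21 was covered by 1 nuclear and 18 cytoplasmic reads, and the fragments 18 to 40, 20 to 40 and 21 to 40 had 0 nuclear reads and 8, 5 and 2 cytoplasmic reads. The nuclear reads were more spread out. Base 158 was covered by 14 nuclear and 2 cytoplasmic reads, and no single sequence had more than 3, such as 144 to 164 with 3 nuclear and 0 cytoplasmic reads. None of the 34 RNase P sequences occurred in both libraries, and 24 of them were single reads. Bases 36 to 268 of Rpph1 lie inside an annotated exon of Ccnb1ip1 on the same strand, and 22 nuclear and 6 cytoplasmic reads match both genes and cannot be told apart. Sequences that match Rpph1 alone had 1 nuclear and 19 cytoplasmic reads, of which 1 nuclear and 18 cytoplasmic reads lay in the 5′ part.

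The annotated ends of these RNAs appeared in some fragments. RNase MRP RNA had 17 nuclear and 7 cytoplasmic reads that reached its last 3 annotated bases, and 15 nuclear and 7 cytoplasmic reads of these ended in 1 to 3 unmatched Ts, as in the fragment printed above. RNA polymerase III ends its transcripts in a run of Ts, which the protein La binds. On 7SL, 51 nuclear reads (6.54%, 4.91% to 8.51%) and 58 cytoplasmic reads (13.2%, 10.2% to 16.7%) reached the last 3 bases. Of these 27 nuclear and 36 cytoplasmic reads ended in unmatched As alone, the base that is known to be added to 7SL after transcription. Leaving out sequences that match another transcript more fully left 765 nuclear and 429 cytoplasmic 7SL reads. How many of the reads left out ended in such As was not counted. On 7SK 0 nuclear and 1 cytoplasmic reads reached the last 3 bases, and 2 nuclear and 1 cytoplasmic reads began at base 1. No genome sequence was used here, so whether bases past an annotated end are copied from the gene was not tested.

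Fragments were of small RNA size with no single preferred length. Median lengths were 22 nt in the nuclear and 21 nt in the cytoplasmic library for 7SK and for RNase MRP RNA, and 21 nt in both for 7SL and RNase P RNA. On 7SK 241 nuclear and 101 cytoplasmic reads were 22 nt long, whereas 132 nuclear and 138 cytoplasmic reads were 24 nt long, the length of the fragment from 246 to 269. An A was the first base of 27.6% of nuclear and 47.8% of cytoplasmic 7SK reads. This is not separate from the start at base 246, itself an A. That start gave 156 of 1463 nuclear and 303 of 918 cytoplasmic 7SK reads.

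Of single sequences with at least 10 reads, 74 belonged to these RNAs, 52 of them to 7SK, 21 to 7SL and 1 to RNase MRP RNA. In all 22 were called higher, 5 lower and 47 neither, against 42.2% higher and 19.0% lower of 15118 single sequences in the libraries. On 7SK 15 were higher and 4 lower, and on 7SL 6 were higher and 1 lower. The libraries shared 142 of 523 sequences of 7SK, 100 of 445 of 7SL and 5 of 43 of RNase MRP RNA. Sequences on the antisense strand numbered 0 for each RNA.

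Fragments of mRNAs that encode the protein partners of these RNAs were few, apart from those of the 7SK particle. Of its 7 genes 5 had at least 10 reads, of which 4 were called higher and 0 lower in the nuclear library. Among all 4142 long transcripts with at least 10 reads, 37.1% were called higher and 1.71% lower. Hexim1, which with 7SK inhibits P-TEFb, had 90 nuclear and 7 cytoplasmic reads. Mepce, which caps 7SK, had 25 nuclear and 1 cytoplasmic reads, Cdk9, the kinase of P-TEFb, 16 and 2, and its cyclin Ccnt1 11 and 2. Ccnt2 had 12 nuclear and 6 cytoplasmic reads and was not called. Of 8 genes of the signal recognition particle 3 had at least 10 reads and 2 were called higher: Srp9, of the Alu domain, with 11 nuclear and 0 cytoplasmic reads, and Srp54b, which recognises signal peptides, with 23 and 7. Srp54a and Srp54c are near-identical to Srp54b, so its count is uncertain. Srp72 had 8 nuclear and 4 cytoplasmic reads and was not called.

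None of 11 genes for RNase P and MRP proteins reached 10 reads (5 nuclear and 4 cytoplasmic in all), and none of 4 genes for La and 3′ end factors did (12 nuclear and 10 cytoplasmic). These partner reads are pieces of mRNA and measure neither the proteins nor whole mRNAs.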

How the data were processed

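The authors' deposited table lists distinct sequences with a value per library in RPM, which the authors scaled to the reads listed. CASAVA and mm10 are named in the submitters' processing notes. Trimming, alignment and filters: not given in the sources used here. Column names differ in a last letter, taken as nuclear (N) and cytoplasmic (C). All values (100%) were whole multiples of 1 read within 0.1 read (0.500 RPM nuclear, 0.490 RPM cytoplasmic), which gave the reads used here.

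Sequences were matched to GENCODE vM21 transcripts (GRCm38) on the sense strand, in full or with up to 3 unmatched 3′ bases and at least 18 nt left. Positions are on Rn7sk-201, Rn7s1-201, Rpph1-201 and Rmrp-202; printed RNAs come from GENCODE, fragments from the deposited table. Rn7s1 and Rn7s2 are identical and were summed. The members take every match, also where another gene matches. Any other sequence entered a single small RNA or gene, or none. With the members, 155101 of 538100 listed sequences had an entry. These covered 60.01% of nuclear and 80.68% of cytoplasmic reads, and all remaining sequences entered nothing. Entries with at least 50 reads were the 981 of the background, members included, 589 of them long transcripts. Sequences of more than 10 long genes were left out as repeat-like.

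Ratios are nuclear over cytoplasmic, with exact intervals conditional on the reads of both libraries. Parts of an RNA were compared by exact conditional odds ratios. No p-value is given, since each fraction has 1 library. Scalings besides RPM were the miRNA reads, TMM factors (edgeR 4.0.16) and the median of ratios (DESeq2 1.42.0, R 4.3.3); other steps used Python 3.11.15, numpy 2.4.6 and scipy 1.17.1. On simulated counts for the 981 entries the call found 96.0% of 100 changed 3-fold, 100% of 100 changed 8-fold and 0% of 781 unchanged. The simulation held counting error only and entries of at least 50 reads. It does not cover variation between libraries, nor sequences and starts with fewer reads.

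Sequences named were taken from the 3 with most reads of each RNA in each library and those of at least 10 reads with the extreme ratios. Not all of these are named or printed. Partner genes were named from 10 reads. Members and lists were chosen with earlier results of these data known. The 7SK window, the minimum of 20 reads for a start and the starts described were chosen after their values were seen.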

Additional observations from a re-analysis of the deposited data

How the results depend on the processing

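Of 131 other settings of 18 results, 107 kept the side of the threshold, 96 of them with the same sign. The 11 that changed sign were of values whose interval held 1: 6 of the RNase P level (up to 2.35 with fragments of 25 nt or more), and 5 of the parts of 7SL (0.01), RNase P RNA (-0.35 and -1.22) and RNase MRP RNA (0.02 and 0.12). Log2 level ratios changed as follows. 7SK (0.70) became 1.59 and called with miRNA reads and -0.01 with the median of ratios. 7SL (0.86) became 1.74 with miRNA reads and 1.0 with exact matches only, both called. RNase P RNA (-0.02) became -3.67 and called lower on sequences of no other gene, which had 1 nuclear and 19 cytoplasmic reads. RNase MRP RNA stayed called under each of its settings.

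Log2 odds of the parts whose interval left out 1 came to hold it, or changed sign, as follows. Counting distinct sequences gave 0.33 for the 7SK 5′ part (1.41), 0.04 for its middle (-0.34), -0.37 for its 3′ part (-0.85), -0.36 for the 7SL 3′ part (-0.57) and -2.26 for the RNase P 5′ part (-4.17). Exact matches only gave -0.26 for the 7SK middle and -0.30 for the 7SL 3′ part. Placement by the first base gave 0.09 for the 7SL middle (0.72) and -0.13 for its 3′ part. Sequences of no other gene gave -2.04 for the RNase P 5′ part, and no odds for 7SK and 7SL, where such reads are all in the 3′ part. The causes were not tested.

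Of single sequences, 22 were higher and 5 lower. This became 9 and 3 with at least 20 reads, 44 and 2 with miRNA reads, 14 and 10 with TMM, and 11 and 11 with the median of ratios; these scalings of single sequences were added after seeing the data. No paired analysis was possible because each fraction has 1 library and the labels carry no replicate numbers. Depth limits RNase P and MRP RNA most, with 55 and 91 reads.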
